A study of Mus musculus with 32 samples.

Results

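Epididymal white fat (eWAT, a visceral depot attached to the epididymis) and inguinal white fat (iWAT, a subcutaneous depot) of auranofin-treated mice were compared gene by gene, using 4 libraries of each depot out of the 32 RNA sequencing libraries of the series. A gene entered the comparison when its mean over these 8 libraries was 0.5 FPKM or more (FPKM, fragments scaled by gene length and by a size for each library), which 13706 of 54532 genes did. The animals of all groups were wild-type C57/Bl6j mice that had eaten a 60% fat diet for 12 weeks. They were then given auranofin, a gold compound known from rheumatoid arthritis whose main target is thioredoxin reductase. Dosing ran for 4 weeks, on 3 occasions per week, with 1 mg per kg each time. The comparison group had vehicle in place of the drug, with 4 eWAT and 4 iWAT libraries, and the same depot comparison there, over 13580 genes, served to show which depot differences remained in drug-treated mice. The labels give neither age nor sex, and they do not say that libraries came from separate animals, so each p-value reflects only how much libraries of a group vary.

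White fat depots arise from different embryonic regions, and their cells keep position-dependent transcription factors, among them the Hox genes, into adult life. Visceral fat is covered by mesothelium, a thin epithelial sheet, while subcutaneous fat is not. In obese mice, eWAT gathers macrophages around dying adipocytes. In whole-tissue RNA, fewer cells of a type and less RNA per cell cannot be told apart, and this holds for all values below.

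The 16 white fat libraries held 15031255 to 18436456 reads on genes. The size that the FPKM values were scaled to was not this total. It was 1.05 to 1.11 times the reads in the iWAT and 1.22 to 1.41 times in the eWAT vehicle libraries. Under auranofin it was 1.29 to 1.33 times in iWAT libraries 1, 3 and 4, 1.02 in iWAT library 2, 1.33 to 1.40 in eWAT libraries 2 to 4 and 1.14 in eWAT library 1. Among the auranofin libraries, eWAT library 1 had reads on 20306 genes and the other eWAT libraries on 22155 to 22594, and iWAT library 2 had reads on 19949 genes and the other iWAT libraries on 21667 to 21924. The same 2 libraries had the smallest shares of nuclear ribosomal RNA reads in their groups, 0.0796% and 0.0847%, against 0.306% to 0.643% in the other eWAT and 0.229% to 0.247% in the other iWAT auranofin libraries. Skeletal muscle genes summed to 1187 FPKM in iWAT auranofin library 4 and to 36.5 to 77.9 FPKM in the other 7. Of 30 epididymis and testis genes, 1 passed the filter and 17 were at 0 in all 8 libraries. Of 27 genes of skin and mammary epithelium, 2 passed. Adipoq, which encodes the fat hormone adiponectin, stood between 1368 and 3251 FPKM in all 8 libraries.

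Under auranofin, 835 genes (6.09%) differed between the depots at a Benjamini-Hochberg adjusted p under 0.05 in limma, and such genes are here named called. Of these, 595 (4.34% of genes tested) were higher in eWAT and 240 (1.75%) were higher in iWAT, 830 did not overlap between the depots, and 359 had an absolute log2 difference of 1 or more. All differences are eWAT minus iWAT in log2(FPKM + 1), a scale on which lowly expressed genes show smaller differences than their true ratio. Without overlap in either direction were 2039 genes (14.9%), 8.03% higher in eWAT and 6.84% higher in iWAT. At an unadjusted p under 0.05 stood 1644 genes higher in eWAT (12.0%) and 1365 higher in iWAT (9.96%). Under vehicle, 5085 genes (37.4%) were called, 2381 (17.5%) higher in eWAT and 2704 (19.9%) higher in iWAT. The count under auranofin rests on single libraries. It fell to 118 without iWAT library 3, 232 without eWAT library 4, 261 without eWAT library 3, 261 without iWAT library 1 and 388 without iWAT library 4. With sample quality weights it was 4052, and without both eWAT library 1 and iWAT library 2 it was 1294. The split was 625 higher in eWAT and 465 higher in iWAT after quantile normalization, 2120 and 1932 with the weights, and 709 and 585 without these 2 libraries. Of the 835 genes, 111 were called in all 8 fits that left out 1 library, of which 90 were higher in eWAT and 21 in iWAT. In each of these fits 825 of the 835 were tested and kept their direction. Leaving out 1 library cannot turn the direction of the 830 genes without overlap, so this count is no measure of stability.

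Depot differences that remained were defined as those called with the same sign under both treatments. Of the 13167 genes tested in both comparisons, 642 met this, 490 higher in eWAT and 152 higher in iWAT, and 0 were called with opposite signs. The number was 105 without iWAT auranofin library 3, 181 without eWAT auranofin library 4, 209 without iWAT auranofin library 1, 216 without eWAT auranofin library 3, 341 without iWAT auranofin library 4 and 424 without iWAT auranofin library 2. On the TPM scale, which sets every library to the same total, it was 376, and with a replicate block it was 211 (187 higher in eWAT and 24 in iWAT). They made up 77.8% of the 825 auranofin calls and 13.0% of the 4943 vehicle calls among these genes. A further 183 genes were called only under auranofin and 4301 only under vehicle, which does not show by itself that the difference changed. Of the vehicle calls higher in eWAT, 1959 of 2268 (86.4%) had the same sign under auranofin, and their median difference was 0.81 under vehicle and 0.31 under auranofin. Of those higher in iWAT, 2084 of 2675 (77.9%) had the same sign, with medians of -0.78 and -0.18. The vehicle values chose these genes, so the larger vehicle medians are a description. The median over all genes tested was -0.02 under auranofin and -0.03 under vehicle.

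**Figure D1:**
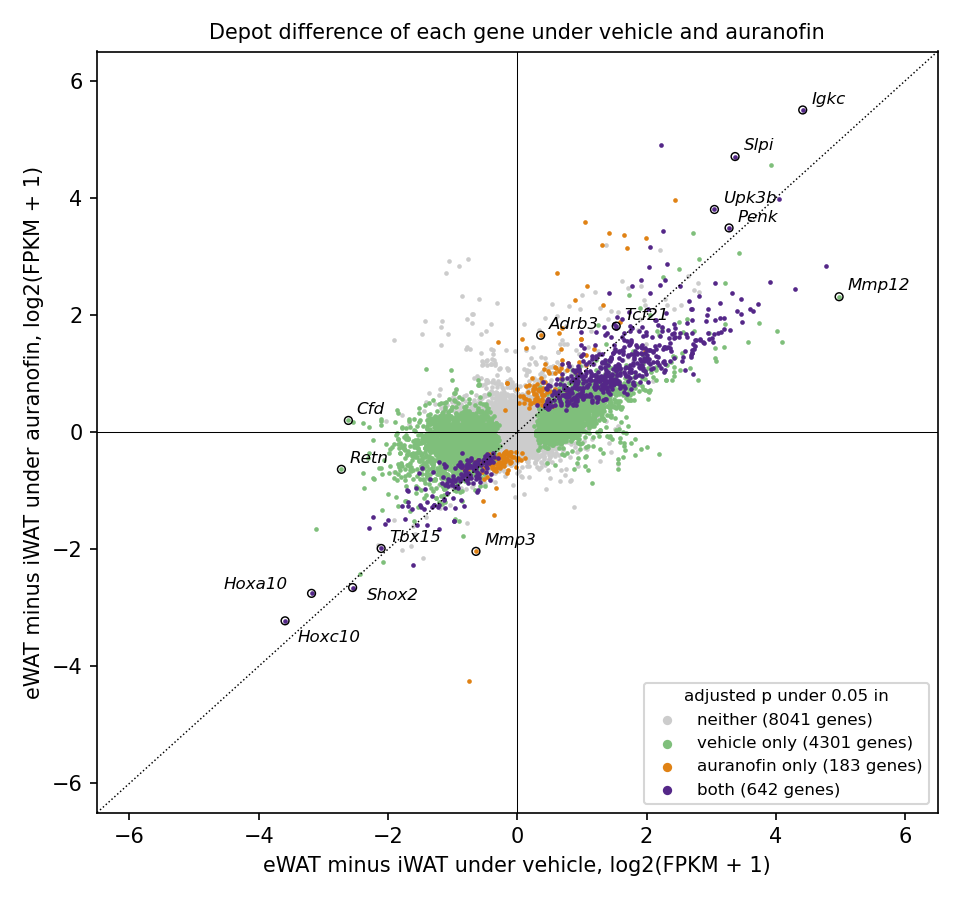
Each point is 1 of the 13167 genes tested under both treatments, with the depot difference (eWAT minus iWAT, log2(FPKM + 1)) under vehicle on the x axis and under auranofin on the y axis, coloured by where limma called it. The 642 genes called in both lie in the upper right and lower left only, Hoxc10 and Hoxa10 are near the dotted line of equal differences, and Retn and Cfd lie far left with auranofin differences of -0.64 and 0.20.

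Whether a depot difference itself changed with the drug was tested as the interaction of depot and treatment over all 16 libraries. Of 13670 genes, 0 were called by limma (0.0%), with a smallest adjusted p of 0.177, and voom on rebuilt reads called 0 as well. At an unadjusted p under 0.05 stood 1816 genes above 0 (13.3%) and 1403 below 0 (10.3%). This balance depended on the scale: as TPM, 449 genes stood above 0 and 4192 below, and the median interaction over all genes was -0.40 in place of -0.01. The count of 0 depended on iWAT auranofin library 2, without which 2036 genes were called, 1293 above 0 and 743 below. Without that library and eWAT auranofin library 1 the count was 1116, and with sample quality weights it was 4083.

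Position-dependent transcription factors were among the clearest of the remaining differences. Of 25 tested patterning factors outside the Hox clusters, 10 were called under auranofin, 6 higher in eWAT (Tcf21, Wt1, Osr1, Foxc2, Gata6 and Meis1) and 4 higher in iWAT (among them Tbx15, Shox2 and Lhx8), and all 10 were also called under vehicle with the same sign. Of 23 tested Hox genes, 3 were higher in iWAT (Hoxc10, Hoxa10 and Hoxa9) and 1 in eWAT (Hoxc4), and these 4 were called under vehicle too. Among all genes tested, 6.09% were called under auranofin and 37.4% under vehicle. The medians of both lists, -0.02 and -0.03, were at the median of all genes. Without iWAT library 2 the counts were 5 and 5 for the patterning factors and 1 and 3 for the Hox genes.

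Tcf21, a basic helix-loop-helix factor of mesenchymal development, stood at 2.18, 2.77, 2.14 and 3.01 FPKM in the eWAT auranofin libraries (chromosome 10, 22817281 to 22820174, build mm10). No read fell on it in any of the 8 iWAT libraries, against 94, 130, 114 and 152 reads in eWAT under auranofin. Its eWAT mean was 173-fold a floor of 3 reads over the iWAT group, a floor that covers counting error only. The difference was 1.81 ± 0.12 (SE) in limma, adjusted p = 0.000303, and 1.53 under vehicle. Wt1, a zinc-finger factor of the mesothelium and its derivatives (chromosome 2, 105126529 to 105173616), had 1.42, 1.98, 2.64 and 1.93 FPKM in eWAT. In iWAT it had 1 read in library 3 and 0 in the other 3, and the difference was 1.57 ± 0.14 with a limma adjusted p of 0.0017. Both genes were called in every fit that left out 1 library.

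In the other direction, Tbx15, a T-box factor of the trunk and of subcutaneous fat (chromosome 3, 99240381 to 99354259), had 2.72, 3.09, 3.27 and 3.12 FPKM in iWAT and 0 to 0.0353 FPKM in eWAT. Its difference of -1.99 ± 0.09 had the smallest adjusted p of the genes named here, 9.67e-05 in limma, and was -2.11 under vehicle. Shox2, a homeobox factor of limb and body-wall development (chromosome 3, 66971727 to 66981771), spread more within iWAT, at 2.51, 11.2, 6.32 and 6.13 FPKM, and lay between 0.0329 and 0.151 FPKM in eWAT. No iWAT library overlapped with eWAT, and the difference was -2.66 ± 0.32 (limma adjusted p = 0.00515), close to the -2.55 under vehicle. Lhx8, a LIM homeobox factor, had 3.17, 1.84, 1.54 and 2.14 FPKM in iWAT and at most 0.0860 in eWAT. Its difference was -1.58 ± 0.16, with a limma adjusted p of 0.00269.

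Hoxc10, a homeobox gene of the posterior body axis (chromosome 15, 102966796 to 102971893), had 10.7, 15.3, 9.35 and 7.55 FPKM in iWAT and 0.285, 0.0787, 0.0692 and 0.488 FPKM in eWAT under auranofin. The difference was -3.22 ± 0.20 (limma adjusted p = 0.000303), and -3.59 under vehicle. Hoxa10 (chromosome 6, 52231197 to 52240854), of the same paralogue group, had 5.70, 8.94, 8.24 and 4.14 FPKM in iWAT. In eWAT it had 2, 3 and 2 reads in libraries 1 to 3 and 26 reads in library 4, and its difference was -2.76 ± 0.21 (limma adjusted p = 0.000958). The eWAT library 4 was also the highest of its group for Hoxc10, with 20 reads against 3 to 10, and for Hoxa9, with 47 reads against 3 to 9. Hoxa9 differed by -1.48 ± 0.19 (limma adjusted p = 0.00779). Hoxc4, of an anterior paralogue group, was higher in eWAT, at 5.75 ± 0.797 FPKM (SD, n = 4) against 2.29 ± 0.668, a difference of 1.05 whose limma adjusted p was 0.0136, and 0.0519 without iWAT library 3. The kit did not mark strand, and Hoxc10 overlaps Hoxc5 on the same strand, and Tcf21, Shox2, Tbx15, Rspo1, Nkain4 and Penk overlap genes on the opposite strand, so reads of such pairs cannot be told apart.

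**Figure D2:**
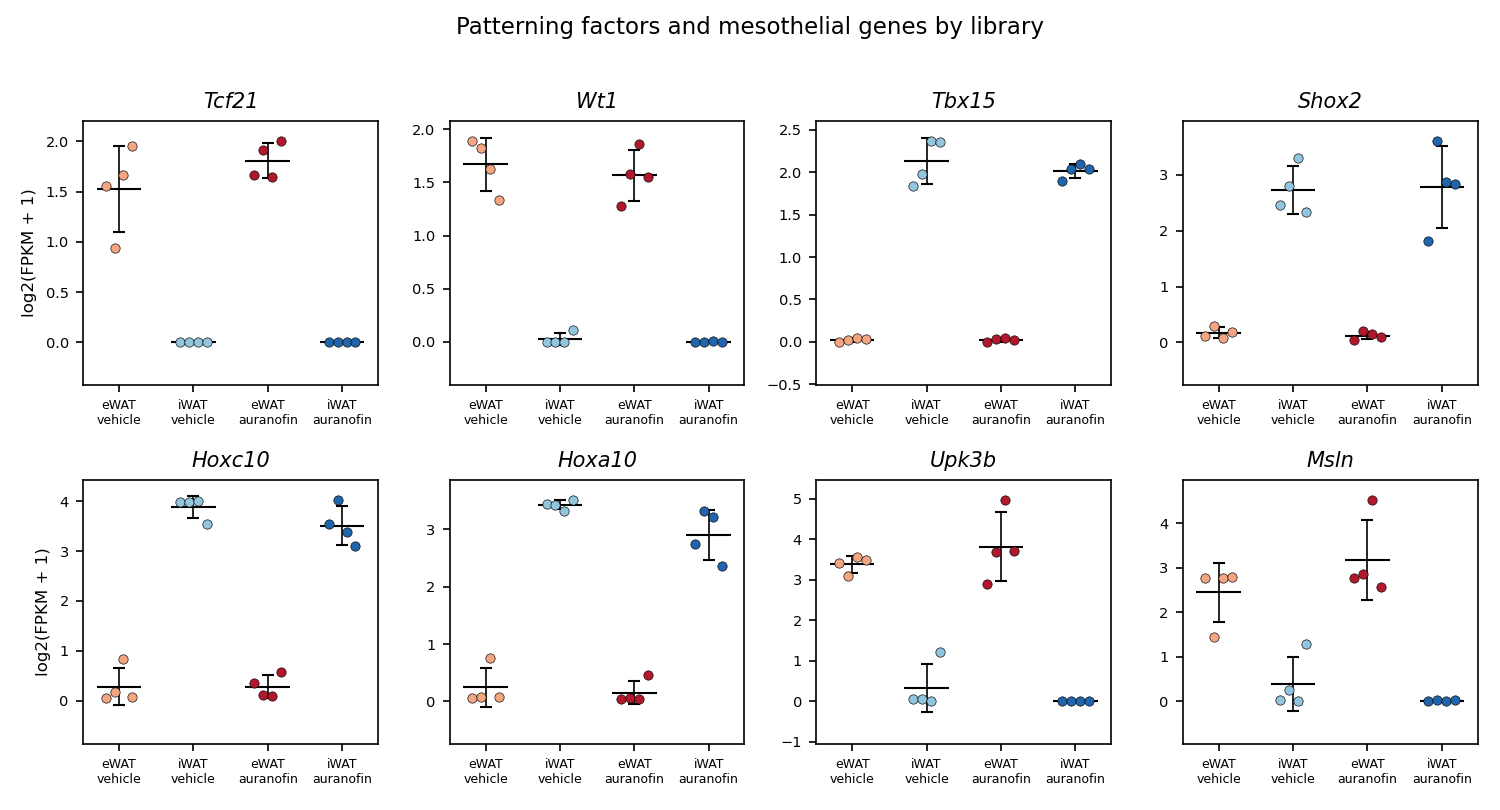
Points are the 4 libraries of each group, with log2(FPKM + 1) on the y axis, a bar at the mean and whiskers of 1 SD. Tcf21, Wt1, Upk3b and Msln are high in both eWAT groups, and Tbx15, Shox2, Hoxc10 and Hoxa10 are high in both iWAT groups, with no overlap between depots under auranofin.

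The 250 bases before the RefSeq start site (build GRCm38.p6, 5′ to 3′ on the gene's strand) are shown for 2 genes that stayed higher in eWAT, Upk3b and Rspo1, and for 2 that stayed higher in iWAT, Shox2 and Hoxa10, to set side by side the promoters of genes that separated the depots under both treatments. Capitals mark 3 motifs, each searched on both strands: the CCAAT box, the GC box with the letters GGGCGG, and the TATA box with the letters TATAAA. In Shox2 the GC box lies on the other strand.
Upk3b (chr5:136038246-136038495, plus strand): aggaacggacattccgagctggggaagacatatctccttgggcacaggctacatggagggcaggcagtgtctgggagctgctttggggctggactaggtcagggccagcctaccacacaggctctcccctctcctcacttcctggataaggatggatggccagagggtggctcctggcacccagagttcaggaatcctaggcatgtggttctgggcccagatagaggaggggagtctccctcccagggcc
Rspo1 (chr4:124986180-124986429, plus strand): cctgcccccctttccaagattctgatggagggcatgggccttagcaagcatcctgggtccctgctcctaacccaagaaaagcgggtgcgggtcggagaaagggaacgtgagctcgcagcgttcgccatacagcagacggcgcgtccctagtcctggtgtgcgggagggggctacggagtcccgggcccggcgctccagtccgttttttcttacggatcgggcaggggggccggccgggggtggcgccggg
Shox2 (chr3:66981772-66982021, minus strand): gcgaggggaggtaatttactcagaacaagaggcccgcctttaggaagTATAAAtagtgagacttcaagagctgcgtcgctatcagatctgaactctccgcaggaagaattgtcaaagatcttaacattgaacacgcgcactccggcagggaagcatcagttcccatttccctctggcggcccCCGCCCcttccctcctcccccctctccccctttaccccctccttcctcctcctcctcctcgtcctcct
Hoxa10 (chr6:52240855-52241104, minus strand): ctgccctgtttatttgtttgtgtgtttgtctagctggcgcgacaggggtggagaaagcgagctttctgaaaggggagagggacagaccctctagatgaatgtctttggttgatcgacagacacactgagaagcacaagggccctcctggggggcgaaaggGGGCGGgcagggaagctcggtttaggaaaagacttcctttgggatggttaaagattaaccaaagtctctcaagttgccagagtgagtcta
Neither window of the eWAT genes held any of the 3 motifs, while Shox2 held 1 TATAAA and 1 GGGCGG and Hoxa10 held 1 GGGCGG. Over 32817 RefSeq windows of the same length, 33.8% held CCAAT, 32.7% held GGGCGG and 12.4% held TATAAA. The count of CG dinucleotides was 2 for Upk3b, 22 for Rspo1, 11 for Shox2 and 7 for Hoxa10, against a median of 6 over all windows. These are matches of letters in these windows, and nothing about binding follows from them.

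Mesothelial genes were higher in eWAT, with a median difference of 1.71 under auranofin and 1.80 under vehicle. Of 17 tested members, 13 were called higher in eWAT and 1, the claudin gene Cldn15, higher in iWAT, and 13 of the calls were shared with vehicle. These counts stand beside 6.09% of all genes called under auranofin and 37.4% under vehicle. This list shares Wt1, C3 and the retinoid enzyme gene Aldh1a2 with other lists described here. Upk3b, a uroplakin of the mesothelial surface, had 6.48, 11.8, 30.2 and 12.1 FPKM in eWAT under auranofin. In iWAT it had 1 read in each of libraries 1, 3 and 4 and 0 in library 2. The difference was 3.80 ± 0.36 (limma adjusted p = 0.00212). Msln, which encodes the surface glycoprotein mesothelin, had 5.82, 6.23, 21.9 and 4.89 FPKM in eWAT and at most 0.0251 in iWAT, a difference of 3.16 ± 0.38 with a limma adjusted p of 0.00542. Both genes were highest in eWAT library 3, as was Upk1b at 3.18, 5.13, 10.7 and 3.59 FPKM. Upk1b had 0 reads in all 4 iWAT auranofin libraries. Its eWAT mean, raised by library 3, was 344-fold the floor of 3 reads over the iWAT group.

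Rspo1, a secreted amplifier of Wnt signalling, had 9.21 ± 4.36 FPKM in eWAT and 0.307 ± 0.0439 in iWAT (SD, n = 4), a difference of 2.87 with a limma adjusted p of 0.00198. Nkain4, which encodes a protein that interacts with the sodium pump, had 8.33 ± 3.74 and 0.263 ± 0.230 FPKM, a difference of 2.83 with an adjusted p of 0.0019 in limma. Among vehicle iWAT libraries, library 4 held reads of this list (94 on Upk3b, 61 on Msln and 10 on Wt1) and the other 3 held 0 to 8 on these genes.

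Other secreted products were also far higher in eWAT. Slpi, a secreted inhibitor of leukocyte proteases, had 30.5, 26.6, 59.7 and 17.8 FPKM in eWAT and 0.296, 0.180, 0.252 and 0.114 FPKM in iWAT. Every eWAT auranofin library was far above every iWAT auranofin library, and the difference was 4.71 ± 0.30 (limma adjusted p = 0.000303), against 3.37 under vehicle. Penk, the precursor of the enkephalin opioid peptides, had 24.2, 38.9, 38.4 and 35.1 FPKM in eWAT and 1.74, 1.46, 2.004 and 3.48 in iWAT, a difference of 3.49 ± 0.22 with the same limma adjusted p, and 3.28 under vehicle. Under auranofin no eWAT library came near the iWAT range for either gene. Under vehicle, Slpi had 5.99 FPKM in eWAT library 2 and 5.02 in iWAT library 4.

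Agt, the precursor of angiotensin, differed by 3.44 ± 0.67 but unevenly, with 11.7, 97.2, 42.2 and 13.3 FPKM in eWAT and 1.201, 0.982, 1.08 and 5.09 in iWAT. Its limma adjusted p of 0.0246 was above 0.05 in 4 of the 8 fits, those without eWAT library 3 and without iWAT libraries 1, 2 or 3, at 0.0504 to 0.0801. The liver gene Alb moved with it, at 33.3, 286, 113 and 3.30 FPKM in the same eWAT libraries and 9.74 to 22.8 FPKM in iWAT. Of the 25 hepatocyte genes tested, 23 lay above 0 with a median of 1.68. Their mean log2(FPKM + 1) was 2.64, 4.98, 3.53 and 1.42 in the eWAT libraries and 1.54 to 1.71 in iWAT. Library 4 of eWAT thus lay below every iWAT library. The 1 called was Arg1, beside 6.09% of all genes tested. The part of the hepatocyte genes in the Agt difference was not tested. Under vehicle the list's median was -1.06.

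Macrophage genes differed towards eWAT. Of 24 tested, 17 were called under auranofin, all higher in eWAT, and 21 under vehicle, beside 6.09% and 37.4% of all genes tested. Calls shared by both treatments numbered 16, and Aif1 was called under auranofin only. All 24 lay above 0 under auranofin, at a median of 1.29, and the median under vehicle was 1.67. Without iWAT library 2 the count was 13, without iWAT library 4 it was 19, and without eWAT library 1 and iWAT library 2 it was 12. In these fits 4.92%, 2.84% and 9.31% of all genes were called. The 24 genes summed to 1303 to 2895 FPKM in eWAT and 539 to 848 in iWAT under auranofin, against 2294 to 5214 and 569 to 879 under vehicle.

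Adgre1, which encodes the macrophage surface marker F4/80, had 40.2, 21.7, 39.1 and 65.2 FPKM in eWAT and 7.39, 8.03, 9.38 and 13.4 in iWAT. The depots did not overlap, and the difference was 1.94 ± 0.31 (limma adjusted p = 0.0145, and 0.0564 without iWAT library 3), against 3.19 under vehicle. The drop in that difference, -1.25 in the interaction, had a limma adjusted p of 0.177. C1qc, a chain of the first complement component made by macrophages, had 141, 101, 140 and 187 FPKM in eWAT and 27.4, 48.5, 30.7 and 40.1 in iWAT, a difference of 1.93 ± 0.24 with a limma adjusted p of 0.0057. Fcgr1, the high-affinity receptor for immunoglobulin G, had 4.70 ± 1.196 against 1.22 ± 0.201 FPKM (SD, n = 4), a difference of 1.34 with a limma adjusted p of 0.00515. Aif1, a calcium-binding protein of macrophages, differed by 1.06 with a limma adjusted p of 0.00447. C1qc, Fcgr1 and Aif1 were called in all 8 fits that left out 1 library.

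Genes of the lipid-associated macrophage state, in which macrophages take up and break down lipid, were less even. Of 20 tested, 7 were called under auranofin, all higher in eWAT, beside 6.09% of all genes tested. Under vehicle 16 were called, 13 higher in eWAT and 3 in iWAT, beside 37.4% of all genes. The medians were 0.93 under auranofin and 1.75 under vehicle. The auranofin count was 3 without iWAT library 2 and 1 without iWAT library 4, beside 4.92% and 2.84% of all genes. Trem2, a lipid-sensing receptor, had 30.4, 4.76, 25.8 and 29.9 FPKM in eWAT and 2.76, 2.90, 1.54 and 2.53 in iWAT. Library 2 of eWAT stood close to the iWAT level, and it was also the lowest eWAT library for Gpnmb (16.1 against 86.3 to 133 FPKM), Ctss (119 against 320 to 391 FPKM) and Mmp12. The Trem2 difference was 2.54 ± 0.51 (limma adjusted p = 0.0269), and its call was lost in 5 of 8 fits, those without eWAT library 3 or 4 or iWAT library 1, 3 or 4, at 0.0650 to 0.0876. Ctss, the lysosomal protease cathepsin S, differed by 2.28 ± 0.38 (limma adjusted p = 0.0171) and lost its call without eWAT library 3 or 4 or iWAT library 1 or 3, at 0.0508 to 0.0635.

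Some genes of this kind were called under vehicle and not under auranofin. Mmp12, the macrophage elastase, had 38.5, 5.33, 55.6 and 54.7 FPKM in eWAT and 8.08, 2.93, 3.15 and 7.74 in iWAT, so that eWAT library 2 overlapped with iWAT. Its difference was 2.31 under auranofin (limma adjusted p = 0.0902) and 4.98 under vehicle (0.00148), and the interaction of -2.67 ± 1.05 had an adjusted p of 0.178. Spp1, which encodes osteopontin, differed by 1.54 under auranofin (limma adjusted p = 0.199) and by 4.09 under vehicle (0.00206). For neither gene was a change in the depot difference shown.

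Complement genes were called in 12 of 22 tested members under auranofin, 11 higher in eWAT and 1, C6, higher in iWAT, and 10 were shared with vehicle. Over all genes, 6.09% were called under auranofin and 37.4% under vehicle. This list shares the C1q chains with the macrophage list. C3, the central complement protein, had 194, 235, 362 and 256 FPKM in eWAT and 44.7, 46.4, 38.3 and 77.8 in iWAT. The difference was 2.33 ± 0.27 (limma adjusted p = 0.00447), and 2.80 under vehicle. C5ar1, the receptor for the complement fragment C5a, had 22.4 ± 5.67 against 6.46 ± 0.810 FPKM (SD, n = 4), a difference of 1.62 with a limma adjusted p of 0.00388. C1ra, a serine protease of the same cascade, differed by 0.91 with a limma adjusted p of 0.00791.

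Antigen presentation followed the same direction. Of 11 tested MHC class II genes and their partners, 7 were called higher in eWAT, all 7 under vehicle too, with medians of 1.18 and 0.93. The shares called over all genes were 6.09% under auranofin and 37.4% under vehicle. H2-Eb1, a class II beta chain, had 375, 326, 473 and 410 FPKM in eWAT and 148, 177, 122 and 138 in iWAT, a difference of 1.43 ± 0.19 with a limma adjusted p of 0.00777. H2-Aa, a class II alpha chain, differed by 1.18 (limma adjusted p = 0.0111, and 0.0540 without iWAT library 3). Of 16 B cell genes, 3 were called higher in eWAT and all 16 lay above 0, with a median of 1.16. Igkc, the constant part of the kappa light chain, ranged over 374, 1891, 1472 and 172 FPKM in eWAT and 33.4, 9.67, 12.2 and 7.83 in iWAT. Its spread within eWAT was wide but did not reach iWAT, and the difference was 5.50 ± 0.78 (limma adjusted p = 0.00997). Jchain, which joins antibody units, followed the same order of libraries at 14.9, 55.9, 52.3 and 8.27 FPKM, and differed by 3.98 ± 0.57 (limma adjusted p = 0.0105). Reads of immunoglobulin and class II genes can be split between near-identical copies, which makes their single values uncertain.

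**Figure D3:**
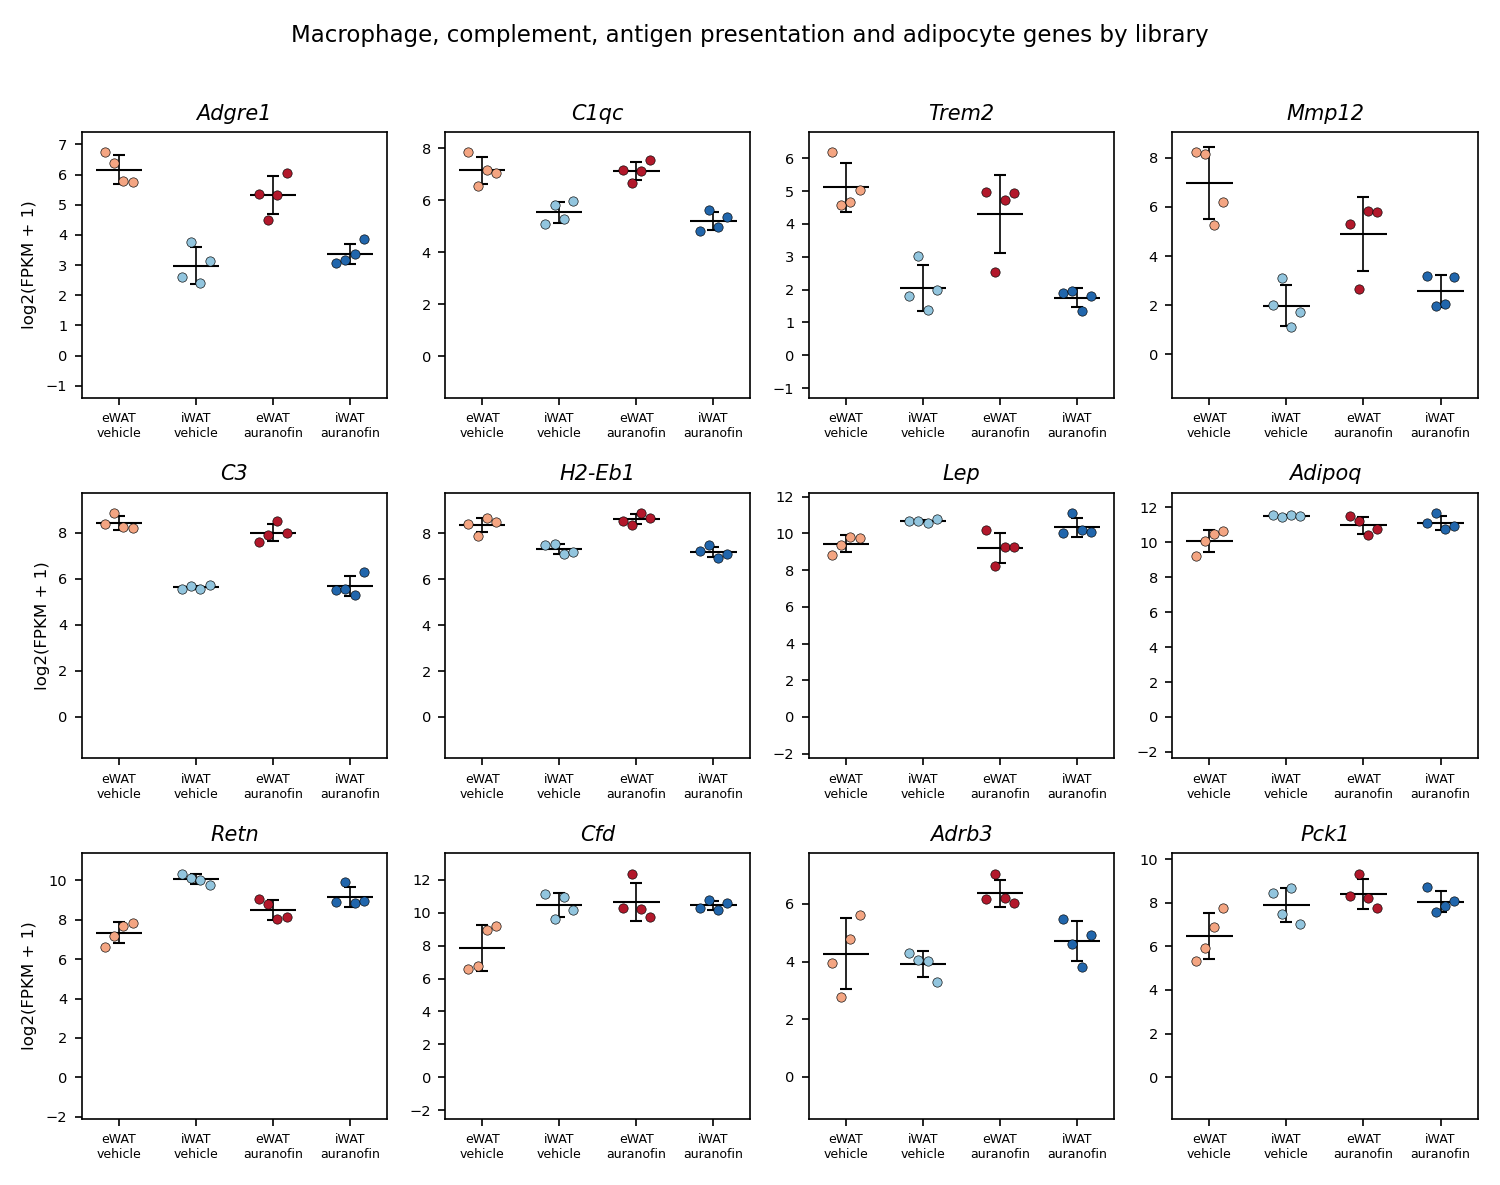
Points are the 4 libraries of each group on a log2(FPKM + 1) axis, with a bar at the mean and whiskers of 1 SD. Adgre1, C1qc, C3 and H2-Eb1 separate eWAT from iWAT under both treatments, while Adipoq, Retn, Cfd and Pck1 overlap between the depots under auranofin.

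The matrix lists held a few called genes with large differences. Of 41 tested matrix glycoproteins and proteoglycans, 6 were called under auranofin, all higher in eWAT and all shared with vehicle, beside 6.09% of all genes. The list's median of 0.04 lay near that of all genes. Without iWAT library 2 the auranofin counts were 3 higher in eWAT and 2 higher in iWAT. Under vehicle 18 were called higher in eWAT and 4 in iWAT, beside 37.4% of all genes, with a median of 0.46. The interaction had a median of -0.51, with 0 called by limma over all 16 libraries without sample quality weights. At an unadjusted p under 0.05 in limma, 1 member stood above 0 and 14 below. Fbln1, a glycoprotein of elastic fibres and basement membranes, had 11.5, 13.0, 17.995 and 15.5 FPKM in eWAT and 1.70, 2.11, 2.16 and 3.12 in iWAT. The difference was 2.24 ± 0.17 (limma adjusted p = 0.000817), and 2.66 under vehicle. Efemp2, a fibulin needed to build elastic fibres, differed by 0.96 ± 0.09 (limma adjusted p = 0.00269). Dcn, the collagen-binding proteoglycan decorin, had 185 ± 20.01 against 77.8 ± 18.1 FPKM (SD, n = 4), a difference of 1.26 with a limma adjusted p of 0.0123, and 0.0540 without iWAT library 3.

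Of 21 tested fibrillar and network collagens, the 2 called under auranofin were both chains of collagen VI, beside 6.09% of all genes tested. Under vehicle 8 were called, all higher in eWAT, beside 37.4% of all genes. Col6a5 had 2.79, 2.55, 7.03 and 12.0 FPKM in eWAT and 0.0113 to 0.0619 in iWAT, a difference of 2.56 ± 0.38 with a limma adjusted p of 0.013, and 0.0507 without iWAT library 3. Under vehicle the difference was 3.92. Col6a6 had 1.81, 2.30, 2.46 and 3.28 FPKM in eWAT and 0.153, 0.139, 0.190 and 0.352 in iWAT, a difference of 1.51 ± 0.14 with a limma adjusted p of 0.00212. The median of the whole list was -0.16 under auranofin and 0.01 under vehicle.

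Among the secreted products higher in iWAT were a chemokine and a matrix protease. Cxcl14, a chemokine of epithelia and fat, had 17.1, 23.6, 17.2 and 17.3 FPKM in iWAT and 4.20, 1.92, 3.30 and 3.19 in eWAT. The difference was -2.27 ± 0.19 (limma adjusted p = 0.00126), and -1.61 under vehicle. Mmp3, the matrix protease stromelysin-1, had 21.6, 13.2, 20.8 and 22.4 FPKM in iWAT and 3.69, 3.09, 4.96 and 4.03 in eWAT, a difference of -2.04 ± 0.19 (limma adjusted p = 0.00191). It was not called under vehicle (-0.64, adjusted p = 0.451), where eWAT libraries 1 and 2 had 43.4 and 24.3 FPKM and libraries 3 and 4 had 4.23 and 5.44. The interaction for Mmp3 was -1.40 ± 0.72, with a limma adjusted p of 0.245.

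A growth factor receptor was higher in iWAT as well. Ret, the receptor tyrosine kinase for glial-derived growth factors, had 9.48, 15.8, 15.3 and 10.9 FPKM in iWAT and 1.85 to 5.36 in eWAT, a difference of -1.59 ± 0.27 with a limma adjusted p of 0.0181. Without eWAT library 3 or iWAT library 3 it was 0.0558 or 0.0642.

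The called retinoid genes were higher in eWAT, and most of the called BMP genes were higher in iWAT. Of 18 tested retinoid genes, 3 were called, all higher in eWAT, among them Aldh1a2 and Aldh1a3, which make retinoic acid and differed by 1.33 and 1.30 (limma adjusted p of 0.0385 and 0.0356). Both of these lost their call without eWAT library 2, 3 or 4 or iWAT library 1, 2 or 3, reaching 0.105 and 0.106. In the list of BMP, TGF-beta and activin signalling, 4 of 33 were called, 1 higher in eWAT and 3 in iWAT, beside 6.09% of all genes tested. Among them were the ligands Bmp2 at -0.57 and Bmp3 at -1.19, both higher in iWAT (limma adjusted p of 0.0239 and 0.0301). Bmp2 lost its call without eWAT library 3 or iWAT library 1, 3 or 4, at up to 0.0768, and Bmp3 without any library but eWAT library 1, at up to 0.0907. These calls were shared with vehicle except that of the receptor gene Bmpr2, which was chosen after its values were seen.

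Adipocyte genes gave the contrast. Over all genes the share called was also lower under auranofin, at 6.09% against 37.4% under vehicle. Of 29 genes of the mature white adipocyte, 25 were called higher in iWAT and 0 higher in eWAT under vehicle, with a median of -1.26. Under auranofin 24 of 29 still lay below 0, with a median of -0.40, and the only call was Adrb3, higher in eWAT. Of 27 fatty acid oxidation genes, 22 were called higher in iWAT under vehicle and 1, Acsl1, under auranofin, with medians of -0.90 and -0.27. Of 75 nuclear genes of oxidative phosphorylation, 70 were called higher in iWAT under vehicle and 0 under auranofin, where the median was -0.09, 0 passed at an unadjusted p under 0.05 and voom called 0. The 13 genes of mitochondrial DNA all lay below 0 under auranofin, at a median of -0.55 with 0 called by limma or voom and 0 at an unadjusted p under 0.05, against 10 called under vehicle at a median of -1.13. These vehicle counts depended on the scaling. After quantile normalization 8 adipocyte genes (median -0.70), 11 fatty acid oxidation, 47 nuclear oxidative phosphorylation and 4 mitochondrial DNA genes were called higher in iWAT under vehicle. As TPM these counts were 14 (median -0.82), 11, 50 and 7. Under auranofin, quantile normalization called 4 adipocyte and 3 fatty acid oxidation genes higher in iWAT, and the TPM scale called 1 and 1. The auranofin medians also leaned on iWAT library 2. Without it they were -0.20 for adipocyte, -0.07 for fatty acid oxidation and -0.38 for mitochondrial DNA genes. In that fit 9 of 29, 9 of 27 and 4 of 13 of these genes lay above 0.

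With sample quality weights, the interaction was called for 4083 of 13670 genes, and the part of these lists in that count is not reported here. In the limma fit of all 16 libraries without weights, used below, the change of these differences was not called for any member. The interaction was above 0 for 75 of 75 oxidative phosphorylation genes (median 1.11, 63 at an unadjusted p under 0.05), 27 of 29 adipocyte genes (median 0.93, 15 unadjusted) and 25 of 27 fatty acid oxidation genes (median 0.59, 10 unadjusted). Over all genes the median was -0.01. After quantile normalization the medians were 0.68, 0.45 and 0.33, with 44, 3 and 5 genes above 0 at an unadjusted p under 0.05, beside -0.04 over all genes. As TPM they were 0.68, 0.48 and 0.17, with 34, 6 and 5 such genes, beside -0.40 over all genes. The genes of a list rise and fall together within a library, so these counts are not independent. Without iWAT auranofin library 2, limma called 64 of 75, 7 of 29 and 11 of 27, beside 14.8% of all genes. In that fit the median auranofin difference of the oxidative phosphorylation genes was 0.20.

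By library, the mean log2(FPKM + 1) of the oxidative phosphorylation genes was 6.80, 6.58, 6.56 and 6.74 in iWAT under vehicle and 5.90, 6.90, 5.55 and 5.54 in iWAT under auranofin. In eWAT it was 5.29, 5.21, 5.69 and 5.78 under vehicle and 6.52, 5.83, 5.57 and 5.77 under auranofin. Library 2 of iWAT thus lay at the vehicle iWAT level and library 1 of eWAT above the other eWAT libraries. These were the 2 libraries with reads on fewer genes, and the iWAT vehicle libraries 1 to 3, at 19839 to 20318 genes, and eWAT vehicle library 2, at 20356, were also low by that measure. The part of this measure in the depot differences was not tested.

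**Figure D4:**
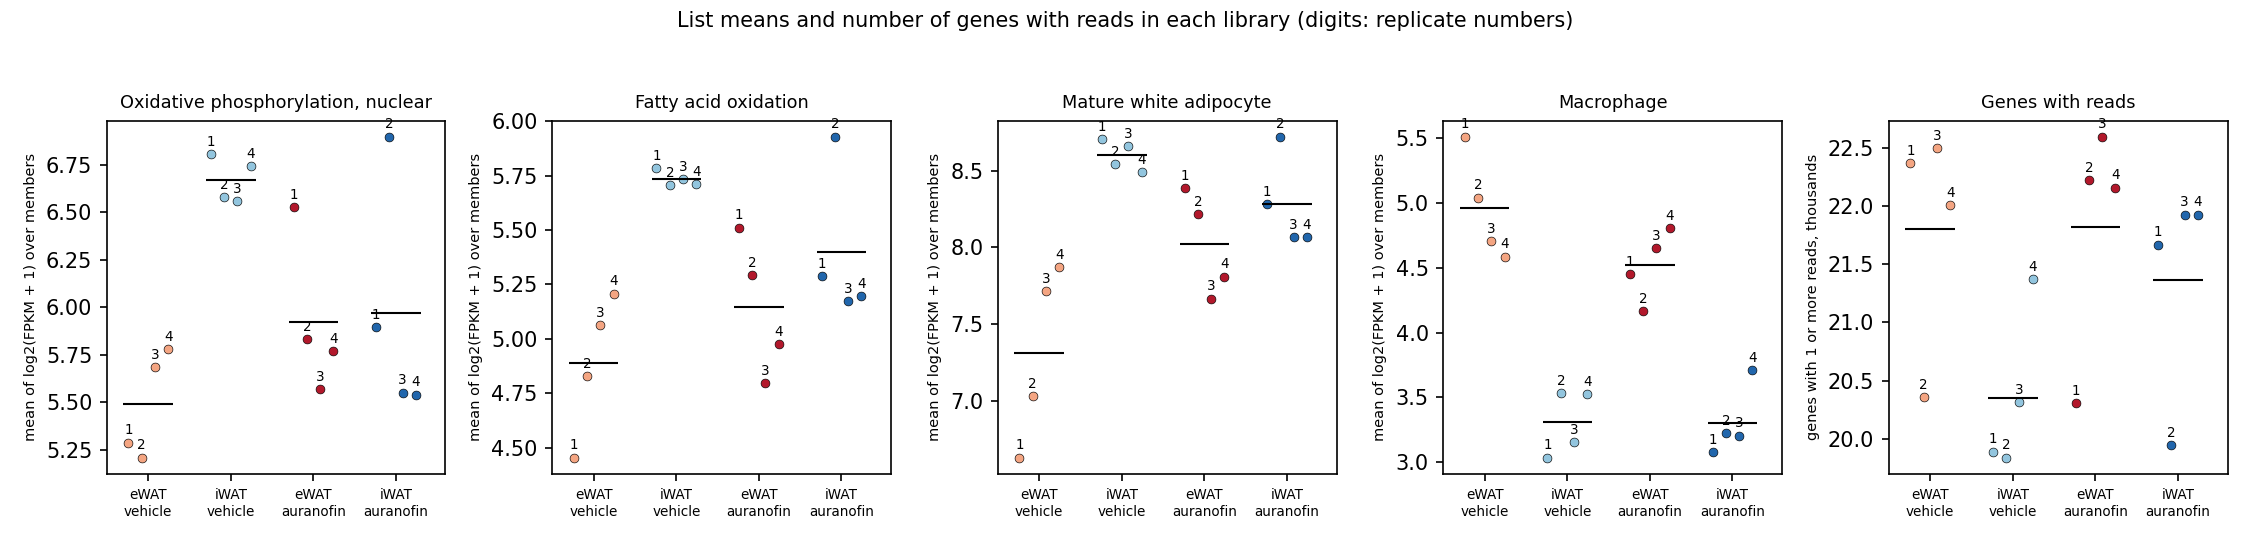
The first 4 panels give, per library, the mean of log2(FPKM + 1) over the genes of a list, and the last panel gives the number of genes with 1 or more reads; bars are group means and digits are replicate numbers. In the oxidative phosphorylation panel iWAT auranofin library 2 sits at 6.90, with the iWAT vehicle libraries, and apart from the other iWAT auranofin libraries at 5.54 to 5.90.

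Retn, which encodes resistin, was called under vehicle only. It had 530, 442, 264 and 276 FPKM in eWAT and 469, 954, 451 and 496 in iWAT under auranofin, with overlap, and 168 ± 57.2 against 1073 ± 178 FPKM under vehicle (SD, n = 4). The difference was -0.64 ± 0.33 under auranofin (limma adjusted p = 0.315) and -2.72 under vehicle (0.000636), and the interaction was 2.08 ± 0.44 with an unadjusted p of 0.000274 and an adjusted p of 0.177. Cfd, which encodes the adipocyte protease adipsin, had 1227, 5309, 1188 and 865 FPKM in eWAT and 1273, 1720, 1132 and 1558 in iWAT, so 2 eWAT libraries lay within the iWAT range, library 4 below it and library 2 far above it. Its difference was 0.20 under auranofin (limma adjusted p = 0.883) and -2.61 under vehicle (0.0142), with an interaction of 2.81 ± 0.90 (adjusted p = 0.177). Adipoq went from -1.43 under vehicle (limma adjusted p = 0.00609) to -0.12 under auranofin (0.885), with 2109 ± 695 FPKM in eWAT and 2270 ± 679 in iWAT.

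Lep, which encodes the satiety hormone leptin, had estimated differences of like size under both treatments. It had 1146, 294, 605 and 612 FPKM in eWAT and 1034, 2211, 1168 and 1065 in iWAT under auranofin, and eWAT library 1 overlapped with iWAT. Library 2 was far above the others in iWAT and the lowest in eWAT. The difference was -1.13 ± 0.43 and did not pass the test (limma adjusted p = 0.17), while the vehicle difference of -1.26 did (0.0041). The interaction was 0.13 ± 0.51 with a limma adjusted p of 0.892, too wide to show that the differences were alike. Ucp1, the uncoupling protein of brown fat, was at or below 0.306 FPKM in all 8 auranofin libraries and was not tested.

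Adrb3, the beta-3 adrenergic receptor that starts lipolysis, was called under auranofin only. It had 71.3, 131, 72.2 and 65.2 FPKM in eWAT and 44.0, 23.6, 13.0 and 29.6 in iWAT, without overlap. The difference was 1.65 ± 0.36 (limma adjusted p = 0.0353), and 0.36 under vehicle (0.621). Its call was kept only without iWAT library 1 and was lost in the other 7 fits, at 0.0508 to 0.0892, and the interaction of 1.29 had an adjusted p of 0.263. Pck1, an enzyme of glyceroneogenesis, did not differ past the threshold under either treatment, at 0.36 (limma adjusted p = 0.648) and -1.44 (0.0681). Acsl1, which activates long fatty acids, stayed higher in iWAT at 202 ± 38.4 against 108 ± 22.8 FPKM (SD, n = 4), a difference of -0.91 with a limma adjusted p of 0.0446. Its call was kept only in the fit without eWAT library 1, and the adjusted p was 0.0657 to 0.133 in the other 7.

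**Figure D5:**
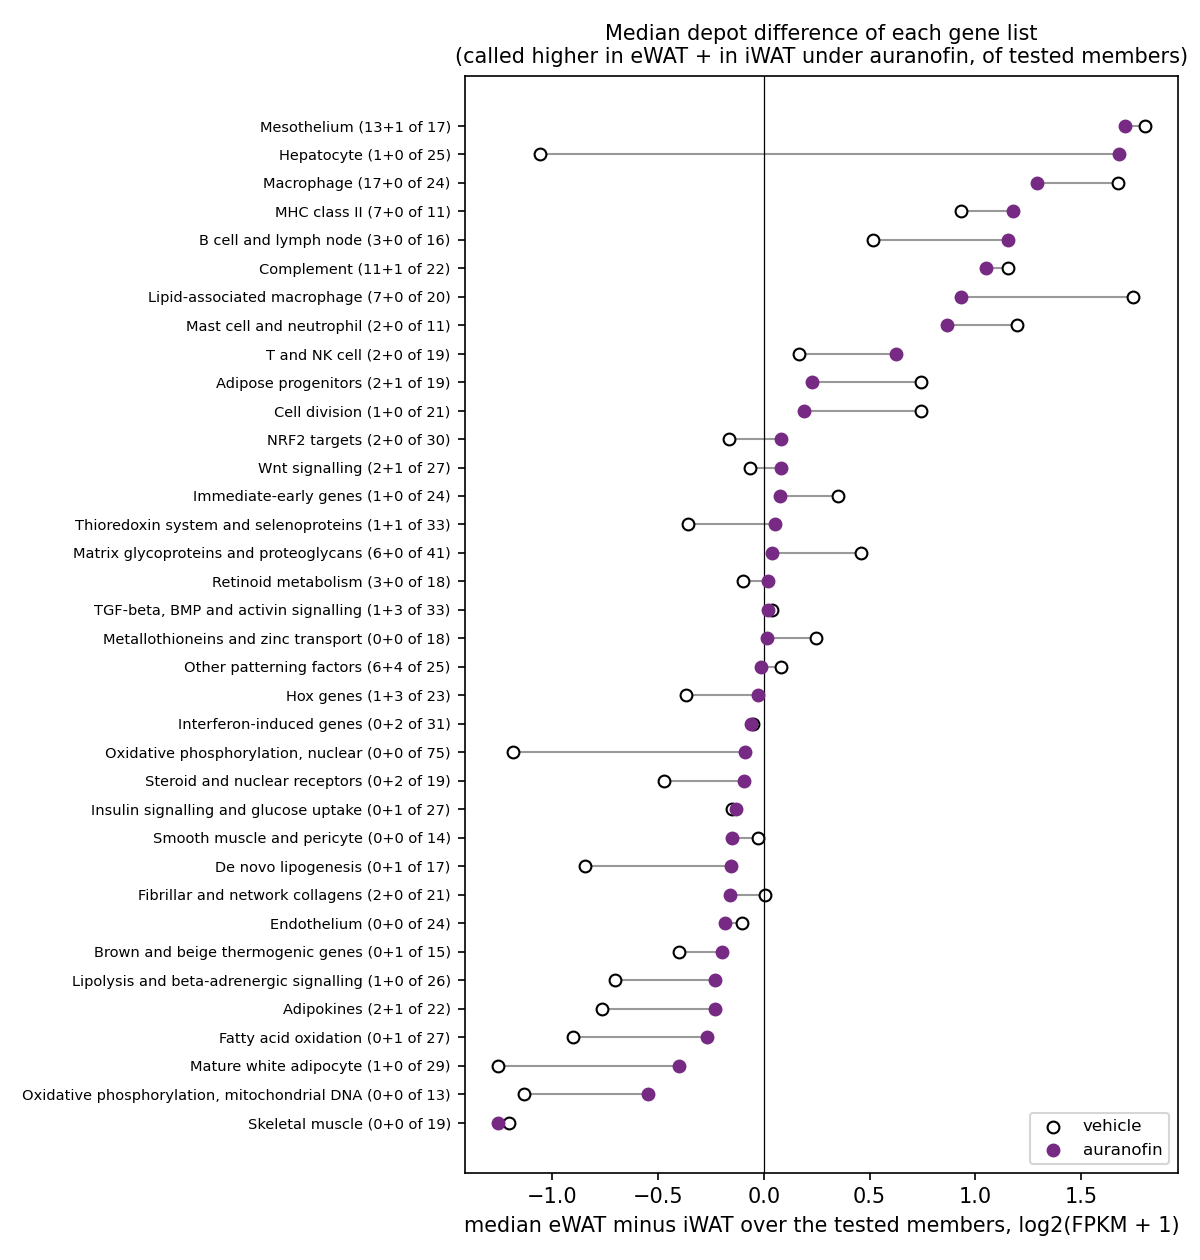
Each line is a gene list with 10 or more tested members under both treatments, and the points give the median eWAT minus iWAT difference (log2(FPKM + 1)) under vehicle (open) and auranofin (filled), with the auranofin calls beside the name (higher in eWAT + higher in iWAT, of tested). The mesothelial list (1.80 and 1.71) and the macrophage list (1.67 and 1.29) lie far above 0 under both treatments, and the oxidative phosphorylation, adipocyte and fatty acid oxidation lists lie far below 0 under vehicle and closer to 0 under auranofin.

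Genes tied to the drug's known targets were read against the 6.09% called among all genes tested. Txnrd1, the cytosolic thioredoxin reductase that auranofin inhibits, had 9.98, 10.2, 11.5 and 9.98 FPKM in eWAT and 8.84, 10.5, 10.03 and 9.28 in iWAT, with overlap. The difference was 0.10 ± 0.09 (limma adjusted p = 0.613), and 0.40 under vehicle (0.0439). Of 33 genes of the thioredoxin system and selenoproteins, 2 were called, 1 in each direction. Txnrd3, a reductase best known from testis, had 4.18 ± 0.492 against 6.02 ± 0.338 FPKM (SD, n = 4), a difference of -0.44 with a limma adjusted p of 0.0348. Selenom, a selenoprotein of the endoplasmic reticulum, had 19.2 ± 2.76 against 10.8 ± 2.01 FPKM, a difference of 0.78 with a limma adjusted p of 0.0247. Txnrd3 lost its call without eWAT library 3 or 4 or any iWAT library, at up to 0.111, and Selenom without eWAT library 3 or 4 or iWAT library 3 or 4, at up to 0.0832. Selenom was not called under vehicle, at 0.13 (0.703).

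Among 30 targets of NRF2, the factor of the oxidative stress response, 2 were called, both higher in eWAT, beside 6.09% of all genes tested. Gstm1, a glutathione transferase, had 332, 428, 371 and 237 FPKM in eWAT and 155, 165, 119 and 163 in iWAT under auranofin. The difference was 1.16 ± 0.22 (limma adjusted p = 0.0232), against 0.42 under vehicle (0.0568), and the interaction of 0.74 had an adjusted p of 0.177. Without eWAT library 3 or iWAT library 1, 3 or 4 its auranofin value was 0.0550 to 0.0794. Gstm1 has near-identical relatives, so reads may be split between copies. Cbr3, a carbonyl reductase, differed by 0.83 (limma adjusted p = 0.0241) and by 0.93 under vehicle, and lost its call without eWAT library 3 or 4 or iWAT library 1, 3 or 4, at up to 0.0803. Nqo1, a quinone reductase, differed by -0.26 (0.601). The metal-binding Mt1 and Mt2 differed by 0.52 and 0.49 (limma adjusted p of 0.489 and 0.511), and 0 of 18 metallothionein and zinc transport genes were called by limma or voom, with 3 at an unadjusted p under 0.05.

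Lists of other cell types differed in their counts, which stand beside 6.09% of all genes tested. Endothelial, smooth muscle and skeletal muscle genes gave 0 calls by limma or voom among 24, 14 and 19 tested, with 4, 2 and 2 at an unadjusted p under 0.05. The median of -1.26 for skeletal muscle was -0.54, over 9 genes that still passed the filter, without iWAT library 4. Of 12 nerve and Schwann cell genes, 2 were called higher in iWAT, against 8 without iWAT library 2 and 0 of 9 without iWAT library 4. S100b, a calcium-binding protein of glia and adipocytes, differed by -1.63 (limma adjusted p = 0.0414) and by -2.30 under vehicle, and lost its call without eWAT library 3 or 4 or any iWAT library, at up to 0.123. Of 21 genes of cell division, 1 was called under auranofin, against 23 of 26 under vehicle, where their median was 0.74. Under vehicle 37.4% of all genes were called.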

How the data were processed

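Total RNA of epididymal and inguinal fat was sequenced without strand marking. The authors deposited 1 table of FPKM values for 54532 genes and 32 libraries, with the gene length used. CASAVA, STAR 2.6.1d, featureCounts 1.5.0-p3, DESeq2 1.20.0 and build mm10 are named in the submitters' processing notes, with no role given. Every FPKM value, multiplied by gene length and by 1 size per library that the steps between low values gave, was a whole number of reads within a tolerance of 0.1 read, which gave the read counts and totals printed. These sizes differ from the read totals by a factor that varies between libraries, so the deposited FPKM values were already rescaled. How is not given in the sources used here.

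Each depot comparison was fitted to log2(FPKM + 1) in limma 3.58.1 under R 4.3.3, with its intensity trend option, a minimum mean of 0.5 FPKM and Benjamini-Hochberg adjustment over all genes tested, separately for the auranofin and the vehicle libraries. The interaction used all 16 libraries. Groups came from the sample titles. On simulated data, the auranofin fit over 13697 genes recovered 4.48%, 37.3% and 69.7% of genes changed 1.5-, 2- and 4-fold, and the interaction fit over 13671 genes 2.99%, 23.9% and 72.7%. Each gene was drawn separately, with no shift shared by the genes of a library, and 67, 67 and 66 genes were changed. These shares may thus differ from those for the real libraries. Up to 10 genes per direction with the largest differences, up to 4 called members of each of 40 lists, up to 5 genes per direction of the interaction and of the vehicle-only calls, and a fixed set were eligible to be named. The members and lists were chosen with earlier results of these data known. Alternatives covered the pseudocount, filter, scaling, weights, voom on the rebuilt reads, gene length, a replicate block, thresholds and single libraries left out. Leaving out eWAT auranofin library 1 and iWAT auranofin library 2 together was chosen after seeing the data. Floors and read counts cover counting error only. Values after ± are SE or SD and reflect how much libraries of a group vary. Some genes are not reported here.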

Additional observations from a re-analysis of the deposited data

Results flagged for a closer look

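Within groups of 4 libraries, a library was set apart when its gap to the nearest other was a larger part of the group's range than Dixon's 95% critical value allows. This was so in 23 of 170 groups tested. A chance rate of about 1 in 20 would hold only for independent values with a normal spread. The FPKM values and sums were tested without logs, some rest on single reads, and the same libraries recur across groups. The 23 therefore cannot be set against that rate, and they serve only to list libraries that stood apart.

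The iWAT auranofin library 2 stood apart most often. It was highest for Lep at 2211 FPKM (others 1034 to 1168), Retn at 954 FPKM (451 to 496) and Cxcl14 at 23.6 FPKM (17.1 to 17.3), and for the summed adipocyte list at 32468 FPKM (19751 to 21510). It was lowest for Mmp3 at 13.2 FPKM (20.8 to 22.4), Nqo1 at 2.70 FPKM (5.06 to 5.45) and Upk3b at 0 FPKM, which is 1 read below the others. It also had the fewest genes with reads, 19949, and the smallest nuclear ribosomal RNA share, 0.0847%.

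The eWAT auranofin library 2 was highest for Cfd at 5309 FPKM (865 to 1227), for the summed complement list that holds Cfd at 6741 FPKM (2755 to 3054), and for Adrb3 at 131 FPKM (65.2 to 72.2). The eWAT library 3 was highest for Msln at 21.9 FPKM (4.89 to 6.23), Aldh1a2 at 7.74 FPKM (3.00 to 3.38) and Txnrd1 at 11.5 FPKM (9.98 to 10.2). The eWAT library 4 was highest for Hoxa10 at 0.370 FPKM and Hoxa9 at 0.392 FPKM.

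In iWAT, library 4 was highest for summed skeletal muscle genes at 1187 FPKM (53.6 to 77.9), Agt at 5.09 FPKM (0.982 to 1.201) and Sfrp1 at 2.08 FPKM (0.340 to 0.510). Library 1 was highest for Jchain at 1.49 FPKM (0.374 to 0.507). Library 3 was lowest for Bmp2 at 2.12 FPKM (2.63 to 2.71) and held the single Wt1 read, 0.00686 FPKM.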

How the results depend on the processing

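Of the alternatives run on the named genes, 2000 values kept their side of the threshold, 433 lost it and 24 gained it. A change of direction was counted only for genes called in the main fit or in the alternative, and 0 were counted. Many of these genes were named because they were called in these data, so this count does not measure how stable directions are. The number of genes called under auranofin, 835, was 346 without a filter, 481 on the TPM scale, 4052 with sample quality weights, 388 without the iWAT libraries 4 of both treatments, 1294 without eWAT library 1 and iWAT library 2, 100 at an adjusted p under 0.01 and 359 with an absolute log2 difference of 1 or more. It ranged from 118 to 884 when 1 library was left out. Under vehicle the count of 5085 was 7841 with weights, 2563 at 0.01 and 1586 with the fold limit, and 3553 to 5955 with 1 library left out. On the TPM scale the vehicle count was 5905, split into 4980 higher in eWAT and 925 higher in iWAT, and the median of all genes moved from -0.03 to 0.35, so vehicle directions of small size depend on the scale. The number that remained, 642, was 254 without a filter, 376 as TPM, 2502 with weights, 335 without the iWAT libraries 4, 79 at 0.01 and 291 with the fold limit, and 105 to 712 with 1 library left out. The interaction count of 0 was 4083 with weights, 2 without eWAT vehicle libraries 1 and 2, 1116 without eWAT auranofin library 1 and iWAT auranofin library 2, and 0 to 2036 with 1 library left out. The cause was not tested.

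The labels do not say whether same-numbered libraries of the depots share an animal. Correlations of same-numbered libraries, on deviations from group means, were -0.34, -0.28, 0.28 and 0.15 under auranofin. Under vehicle they were -0.01, 0.21, -0.07 and 0.15. Shifts of whole libraries enter these values, so they cannot settle the pairing. With a replicate block, 228 genes were called under auranofin, 201 higher in eWAT and 27 in iWAT, 211 remained, and the vehicle count was 4551. Not every library correlated best with its own number, and eWAT auranofin library 1 and iWAT auranofin library 2 had a correlation of 0.73.

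At this number of libraries, 1.5-fold differences were seldom recovered on simulated data that held no shift shared by the genes of a library. The absence of a call does not show that a gene was alike in both depots.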

Other observations

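Several single genes of other roles also remained different between the depots. Sfrp1, a secreted Wnt inhibitor, had 2.70, 7.26, 6.51 and 3.19 FPKM in eWAT and 0.340, 0.510, 0.447 and 2.08 in iWAT under auranofin, a difference of 1.68 with a limma adjusted p of 0.028, and 2.52 under vehicle. Fzd4, a Wnt receptor, differed by -0.64 (limma adjusted p = 0.0414), at 96.96 ± 11.9 against 61.6 ± 7.85 FPKM (SD, n = 4). Lcn2, the iron-scavenging adipokine lipocalin 2, had 2.56 ± 0.931 FPKM in eWAT and 0.591 ± 0.259 in iWAT, a difference of 1.14 with a limma adjusted p of 0.0195. Sfrp1, Fzd4 and Lcn2 were called in 3, 2 and 5 of the 8 fits that left out 1 library.

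On the adipocyte side, Slc36a2, an amino acid transporter, had 58.4, 92.2, 66.4 and 58.1 FPKM in iWAT and 17.8 to 39.6 in eWAT, a difference of -1.30 with a limma adjusted p of 0.026, and -1.11 under vehicle. Pnpla3, a lipid-droplet protein of the patatin family, had 171 ± 23.3 FPKM in iWAT and 100.2 ± 15.8 in eWAT (SD, n = 4), a difference of -0.77 with a limma adjusted p of 0.0374. Slc36a2 was called in 2 and Pnpla3 in 1 of the 8 fits. Il7r, the interleukin 7 receptor, had 5.18, 1.92, 8.08 and 6.94 FPKM in eWAT and 0.410 to 1.23 in iWAT, a difference of 1.71 with a limma adjusted p of 0.026, and 3.16 under vehicle. It was called in 2 of the 8 fits and stood at 0.0525 to 0.0828 in the others.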
